A study of Mus musculus with 2 samples.

Results

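Fibrillar collagens I, III and V build the fibers of bone, tendon and periosteum, and the 6 genes described here encode their chains: Col1a1 and Col1a2 (type I), Col3a1 (type III), and Col5a1, Col5a2 and Col5a3 (type V). They were taken by gene symbol from the 32288 features of the count matrices and measured in every barcode with at least 500 genes, at least 500 UMIs and at most 10% mitochondrial UMIs. The data are 2 scRNA-Seq libraries of cells peeled from the surface of femurs and tibias of wild-type C57BL6 mice 4 weeks old, sorted as negative for CD45, CD31 and Ter119. The libraries are replicates 1 and 2 of a single condition, made with the 10x Chromium Single Cell 3' v3.1 kit, so the comparisons are between cell classes within the libraries. The labels do not say how many mice stand behind each library, and the p-values below measure only the spread between these libraries.

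A fibrillar procollagen is made as a long chain, hydroxylated and folded into a triple helix in the endoplasmic reticulum, trimmed at its ends outside the cell and then assembled into fibrils that lysyl oxidases crosslink. Type I, assembled from the products of Col1a1 and Col1a2, is the bulk protein of bone matrix and is made in large amounts by osteoblasts. Type III, made from Col3a1 alone, is abundant in loose and vascular connective tissue, and type V, made from Col5a1 with Col5a2 and in some tissues with Col5a3, is a minor partner that helps to start type I fibrils and to limit their width.

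On the GRCm38 build with GENCODE M21 annotation, Col1a1 lies at chr11:94936224-94953042 and Col1a2 at chr6:4504814-4541544, both on the plus strand. Col3a1 (chr1:45311538-45349706, plus strand) and Col5a2 (chr1:45374321-45503282, minus strand) face each other, and their 3′ ends are 24.6 kb apart. Col5a1 spans 153 kb at chr2:27886425-28039514 on the plus strand, and Col5a3 lies at chr9:20770050-20815067 on the minus strand. Predicted genes on the same strand overlap Col1a2 (Gm43921), Col3a1 (Gm47302) and Col5a2 (Gm38211), and genes on the opposite strand overlap Col5a1 (2810430I11Rik and Gm13372) and Col5a3 (Gm26274). Molecules from such shared stretches could be left out by the counting, and the size of that loss was not measured.

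Over the 12 sums of the 6 classes fitted below, Col3a1 and Col5a3 had a Pearson r of 0.895, while Col5a1 was also high in osteoblast-like cells, where both were low. Classes outside these sums parted the 2 genes. In library 1, Lepr+ stromal-like cells had Col5a3 at 182 CPM, against 250 in P-SSC-like cells, but Col3a1 at 187 against 10075. The gap in Col3a1 was smaller in library 2, from 6 Lepr+ stromal-like cells. There Col5a3 was at 198 CPM against 244 and Col3a1 at 3107 against 14823. Smooth muscle-like cells ranked 1 for Col5a3 and 3 for Col3a1. Other pairs had a like or higher r, such as Col5a1 with Col1a2 (0.940). The promoter set used held no entry for Col1a1 or Col5a2, and an annotated exon covers the window of Col1a2. The 100 bases before the start are therefore shown only for Col3a1, Col5a1 and Col5a3. The start is the most upstream one in GENCODE M21 or RefSeq, so a window need not touch the GENCODE position given above. They come from RefSeq (GRCm38.p6) and are written 5′ to 3′ on the gene's strand, at chr1:45311438-45311537, chr2:27886281-27886380 and chr9:20815118-20815217. Capitals mark the CCAAT motif, which reads as ATTGG on the other strand, and the GGGCGG motif, which reads as CCGCCC there, and TATAAA, which reads as TTTATA on the other strand, was searched as well. These do not overlap each other.
Col3a1: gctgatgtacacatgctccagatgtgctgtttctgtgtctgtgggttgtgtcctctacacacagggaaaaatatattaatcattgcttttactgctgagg
Col5a1: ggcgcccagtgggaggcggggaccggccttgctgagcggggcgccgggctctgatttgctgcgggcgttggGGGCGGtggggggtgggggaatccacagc
Col5a3: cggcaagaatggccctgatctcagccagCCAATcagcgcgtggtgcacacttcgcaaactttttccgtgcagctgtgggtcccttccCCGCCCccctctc
The Col3a1 window held none of the motifs and was 43.0% G and C. The Col5a1 window (76.0% G and C) held 1 GGGCGG, and that of Col5a3 (62.0% G and C) held 1 CCAAT and 1 GGGCGG. Among 32851 promoters searched over the 100 bases before the start in the promoter set, 5.56% held TATAAA, 18.9% CCAAT and 24.7% GGGCGG, so each of the motifs found is common.

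Library 1 held 9932 barcodes and 100808649 UMIs, and library 2 held 3659 barcodes and 33306452 UMIs. The filter kept 6276 and 2893 cells, with medians of 8164 and 6279 UMIs per cell, and 7 kept barcodes occurred in both libraries. Blood cell classes made up 5828 of the kept cells in library 1 and 1769 in library 2, although the sort was for cells without CD45 and Ter119, and 448 and 1124 stromal cells were left. Cell classes were rebuilt by clustering without the 6 chain genes, the 5 other fibrillar collagens and the 29 processing genes described below. Other collagen genes stayed in, and Col9a1, Col9a2 and Col10a1 were among the markers. The class names carry the suffix "-like", as they come from marker genes. In all, 9 stromal classes were named, and tenocyte-like (2 and 100 cells), smooth muscle-like (4 and 21) and Lepr+ stromal-like cells (72 and 6) were too few in a library for the tests. The 9 osteoblast markers summed to 38248 CPM (the gene's UMIs over all UMIs of the class, scaled to 1000000) in osteoblast-like cells of library 1 and 27777 in library 2, against 15.5 and 17.1 in B cell-like cells. In P-SSC-like cells the 10 periosteal skeletal stem cell (P-SSC) markers summed to 8279.9 and 10932 CPM, against 77.5 and 77.7 in B cell-like cells. In tenocyte-like cells they summed to 4494 and 2994 CPM, from 9 and 10 genes. The list was Pdgfra, Ly6a, Cd34, Clec3b, Dpp4, Pi16, Gas1, Mfap5, Pdpn and Thy1. It left out Prrx1, Lrp1 and the gene of CD13, which the authors tie to mouse P-SSCs. The 10 chondrocyte markers summed to 52595 and 34341 CPM in chondrocyte-like cells, against 12.4 and 16.9 in B cell-like cells. Libraries differed in blood markers carried by a class. The 10 erythroid markers summed to 24776 and 205 CPM in osteogenic progenitor-like, 22029.7 and 364 in Lepr+ stromal-like and 14175 and 217 in Col10a1+ chondrocyte-like cells. The 10 neutrophil markers summed to 12966 and 36.9 CPM in P-SSC-like, 15180.3 and 66.1 in Lepr+ stromal-like and 7447 and 31.8 in Col10a1+ cells. The 10 B cell markers, Ebf1 among them, summed to 2526 and 1133 CPM in P-SSC-like cells. Sums of a like size were also found elsewhere in the stroma. Lepr+ stromal-like cells had 1429 CPM from 7 genes in library 1 and 1719 from 1 gene in library 2. Smooth muscle-like cells had 3705 CPM from 2 genes and 1906 from 4. An unnamed cluster led by S100a5, Fabp4 and Mepe had 1022 CPM from 9 genes and 252 from 4. Whether the B cell sum of P-SSC-like cells comes from blood cells was not tested. The part of other cells in the values below was not tested.

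Blood cells were taken as the background, and whether they express any of these chains themselves was not tested. Col1a1 lay between 37.0 and 74.3 CPM in the named blood classes of library 1 and between 24.5 and 56.2 CPM in those of library 2, and Col1a2 between 24.0 and 55.9 and between 0 and 28.3 CPM. Every named blood class thus held type I UMIs at a low level, except for Col1a2 in the 38 monocyte/macrophage-like cells of library 2. Single blood clusters spread more widely in Col1a1, from 26.1 to 215 CPM in library 1 and from 10.1 to 217 CPM in library 2. Col3a1 reached 1.07 CPM in library 1 and 41.9 CPM, in erythroid-like cells, in library 2, and Col5a2 stayed at or under 2.91 CPM. Col5a1 and Col5a3 had higher levels in a single blood class each, described further on. By share of cells, 22.2% and 14.6% of B cell-like cells (median 3477 and 3892 UMIs) had a Col1a1 UMI, against 100% and 99.5% of osteoblast-like cells (median 28530.5 and 14507 UMIs).

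**Figure D1:**
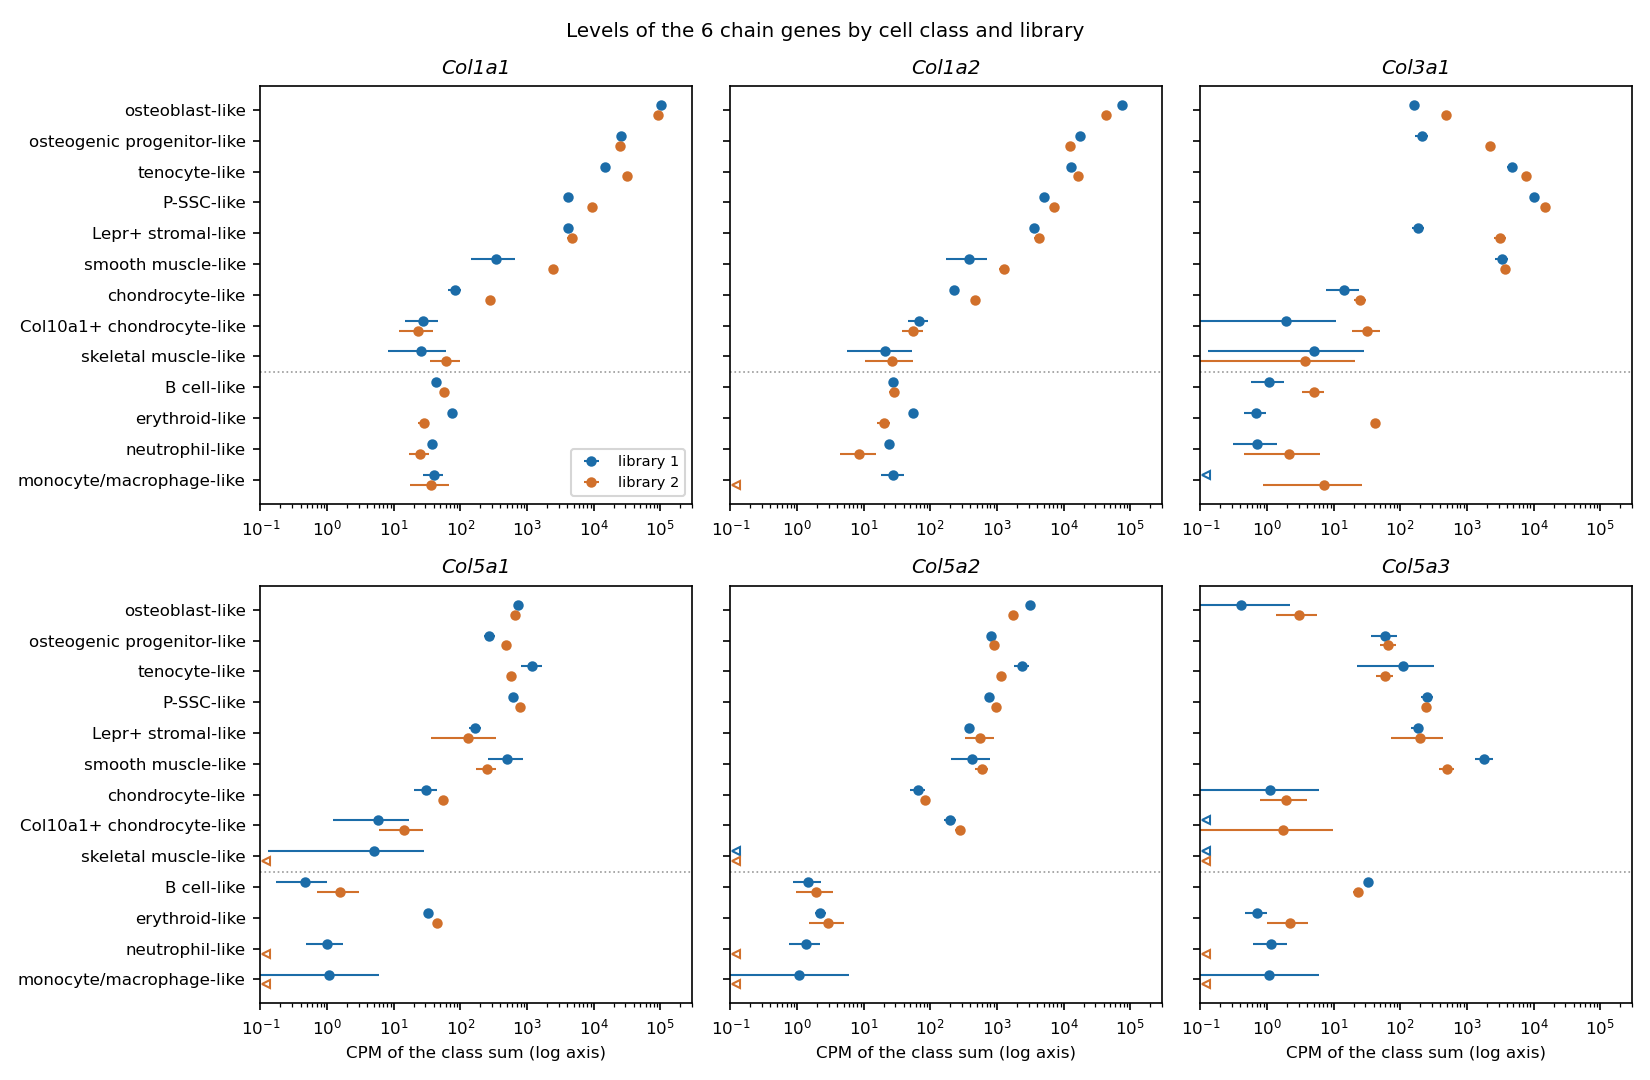
Levels of the 6 chain genes in 9 stromal classes (above the dotted line) and 4 blood classes (below it), as CPM of the summed UMIs on a log axis. Points are libraries 1 and 2, lines exact Poisson 95% intervals (counting error only, some running past the axis), and open triangles sums with 0 UMIs. Col1a1 and Col1a2 were highest in osteoblast-like cells, Col3a1 in P-SSC-like cells and Col5a3 in smooth muscle-like cells.

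The type I genes were highest in osteoblast-like cells. Col1a1, for the chain present in every type I molecule, was at 102506 CPM in library 1 and 91224 CPM in library 2, so that in the median cell 9.12% and 9.15% of all UMIs came from this gene. From the 10th to the 90th percentile of cells that share ran from 4.75% to 16.6% and from 3.95% to 18.0%. Osteogenic progenitor-like cells followed with 26060 and 24652 CPM, tenocyte-like cells with 14994 and 31923, P-SSC-like cells with 4113 and 9586 and Lepr+ stromal-like cells with 4143 and 4792. The first class stood apart from the rest, while the libraries of progenitor-like and tenocyte-like cells overlapped, as did those of P-SSC-like and Lepr+ stromal-like cells. Smooth muscle-like cells were at 337 and 2454 CPM and chondrocyte-like cells at 82.5 and 278. Col10a1+ chondrocyte-like cells, which express the type X collagen of growth plate hypertrophy, were at 27.4 and 22.9 CPM and skeletal muscle-like cells at 25.7 and 60.6, at, below or close to the blood background.

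Progenitor-like cells were uneven in Col1a1. Their median cell gave 0.128% and 0.570% of its UMIs to the gene and the 90th percentile 2.71% and 5.84%, so the class sum rests on its high cells. Osteoblast markers in that class summed to 23935 and 13979 CPM, against 38248 and 27777 CPM in osteoblast-like and 750 and 186 in P-SSC-like cells.

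Col1a2, which encodes the other type I chain, had the same order at the top, with 75263 and 42559 CPM in osteoblast-like, 17713 and 12564 in osteogenic progenitor-like and 5115 and 7145 in P-SSC-like cells. Tenocyte-like cells were at 12820.0 and 16517 CPM, within the range of the progenitor-like libraries, and Lepr+ stromal-like cells at 3556 and 4297. Library 1 was above library 2 in osteoblast-like and progenitor-like cells and below it in the other classes of this list. In chondrocyte-like cells Col1a2 was at 228 and 464 CPM, and 96.3% and 89.1% of cells had a UMI, against 51.9% and 55.5% for Col1a1 in the same cells. These cells were deep (median 34081 and 30323 UMIs), and after thinning each cell to 1000 UMIs the expected shares were 21.2% and 26.0% for Col1a2 and 7.05% and 12.8% for Col1a1. The thinned shares in B cell-like cells were 3.72% and 2.71% for Col1a2. Col10a1+ chondrocyte-like cells had 66.5 and 54.7 CPM of Col1a2, with UMIs in 30.4% and 17.6% of cells (median 6138 and 6238.5 UMIs). Erythroid-like cells, deeper at medians of 14986 and 12679 UMIs, had UMIs in 35.1% and 20.7% of cells but a level of 55.9 and 19.9 CPM. Thinned to 1000 UMIs, the shares were 6.77% and 4.72% in Col10a1+ and 2.64% and 2.03% in erythroid-like cells. The Col1a2 level of Col10a1+ cells in CPM was above that of every named blood class in both libraries, but not above every single blood cluster. In library 1 the erythroid-like cluster led by Hebp1 had 107 CPM and the unnamed cluster led by Prss34 had 104. In library 2 the erythroid-like clusters led by Hba-a2 and Gm26917 had 60.2 and 95.3 CPM, from 5 UMIs and 1 UMI. None of these clusters was above the Col10a1+ cells in both libraries. The part of blood cells in the Col10a1+ level was not tested.

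Most cells with a Col1a1 UMI also had one of Col1a2 in classes where both were high. Of osteoblast-like cells with a Col1a1 UMI, all had one of Col1a2 in both libraries, and of P-SSC-like cells 88.9% and 98.1%. Col1a1 was found in 92 of 92 and 186 of 187 osteoblast-like and in 27 of 31 and 316 of 320 P-SSC-like cells. Too few cells lacked it for these shares to show whether the genes go together. Of P-SSC-like cells without Col1a1, 75% and 50% had Col1a2. Among chondrocyte-like cells the share with Col1a2 was 92.9% and 90.9% with Col1a1 and 100% and 86.8% without it, and the difference was not tested.

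Col3a1 had another order. It was highest in P-SSC-like cells, at 10075 CPM in library 1 and 14823 in library 2, then in tenocyte-like (4789 and 7750) and smooth muscle-like cells (3326 and 3719). The library ranges of these 3 classes did not overlap. Lepr+ stromal-like cells (187 and 3107 CPM), osteogenic progenitor-like cells (212 and 2245) and osteoblast-like cells (160 and 491) came next and overlapped each other. In all 3 the level in library 2 was the higher. Progenitor-like cells also differed between libraries in other markers, with 10 chondrocyte markers summing to 105 and 2485 CPM and 10 P-SSC markers to 297 and 526, and the part of these in the Col3a1 level was not tested. UMIs of Col3a1 were found in 31.5% and 36.9% of osteoblast-like and in 74.2% and 97.5% of P-SSC-like cells, although the former were deeper, and in 0.722% and 2.81% of B cell-like cells. Chondrocyte-like cells were at 14.3 and 25.2 CPM, which in library 2 is under the 41.9 CPM of erythroid-like cells. In Col10a1+ chondrocyte-like cells 1 and 18 UMIs were counted.

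Of the type V genes, Col5a1, for the chain common to type V molecules, was at a like level in 3 classes. Tenocyte-like cells had 1179 and 581 CPM, osteoblast-like cells 736 and 670 and P-SSC-like cells 608 and 784, and these ranges overlapped. Osteogenic progenitor-like cells (273 and 489 CPM) and smooth muscle-like cells (505 and 247) overlapped below them, followed without overlap by Lepr+ stromal-like (168 and 132), chondrocyte-like (30.8 and 54.5) and Col10a1+ chondrocyte-like cells (5.87 and 14.1). Among erythroid-like cells the gene stood at 33.1 and 45.1 CPM, close to the chondrocyte-like value.

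Col5a2 was led by osteoblast-like cells, with 3143 and 1741 CPM, whose range overlapped that of tenocyte-like cells (2358 and 1147). Osteogenic progenitor-like cells had 807 and 912 CPM and P-SSC-like cells 747 and 969, which overlapped, and smooth muscle-like (421 and 594) and Lepr+ stromal-like cells (381 and 562) overlapped after them. In the blood classes the gene was at most at 2.91 CPM, well below all of these. Col10a1+ chondrocyte-like cells, at 200 and 275 CPM with UMIs in 59.4% and 56.8% of cells, were above the chondrocyte-like cells at 64.9 and 83.8 CPM, in both libraries, whereas their Col5a1 was below. The share of neutrophil-like cells with a Col5a2 UMI was 1.49% and 0%, at medians of 7775 and 7964 UMIs, against 6138 and 6238.5 in the Col10a1+ cells. For the 118 neutrophil-like cells of library 2, with a count of 0, the floor of 3 UMIs stands at 2.16 CPM.

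Col5a3, the chain with the narrowest range of tissues, was highest in smooth muscle-like cells, at 1811 CPM (43 UMIs in 4 cells) and 502 CPM. P-SSC-like cells came next at 250 and 244 CPM, above Lepr+ stromal-like cells at 182 and 198, and tenocyte-like (111 and 59.1) and osteogenic progenitor-like cells (59.0 and 66.2) overlapped. Osteoblast-like cells, with the highest Col5a2 level, gave 1 UMI of Col5a3 in 92 cells and 9 UMIs in 187 cells (0.404 and 2.98 CPM), close to the level in erythroid-like cells (0.698 and 2.18 CPM). Chondrocyte-like cells gave 1 and 7 UMIs and Col10a1+ cells 0 and 1. The 3 last classes overlapped and cannot be ranked at this depth. Among P-SSC-like cells with a Col5a1 UMI, 87.0% and 64.2% had one of Col5a3, and among osteoblast-like cells 1.10% and 3.51%. Of P-SSC-like cells without Col5a1, 50% and 37.5% had Col5a3. Few cells lacked Col5a1, which was found in 23 of 31 and 296 of 320 P-SSC-like cells, and the difference was not tested.

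Together the 6 genes took 18.2% and 13.7% of all UMIs of osteoblast-like cells, 4.51% and 4.09% of osteogenic progenitor-like, 3.62% and 5.80% of tenocyte-like and 2.09% and 3.36% of P-SSC-like cells. In smooth muscle-like cells it was 0.678% and 0.877%, and in chondrocyte-like cells 0.0421% and 0.0908%. Type I made up 97.8% and 97.9% of the collagen UMIs of osteoblast-like cells, with type III at 0.0882% and 0.359%. P-SSC-like cells were mixed, with type I at 44.1% and 49.9%, type III at 48.2% and 44.2% and type V at 7.68% and 5.95%. Tenocyte-like cells lay between these, with 13.2% and 13.4% of type III. In Col10a1+ chondrocyte-like cells, with 154 and 227 collagen UMIs in all, type V made up 68.2% and 72.7%, and 102 of 105 and 156 of 165 of these type V UMIs were Col5a2.

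**Figure D2:**
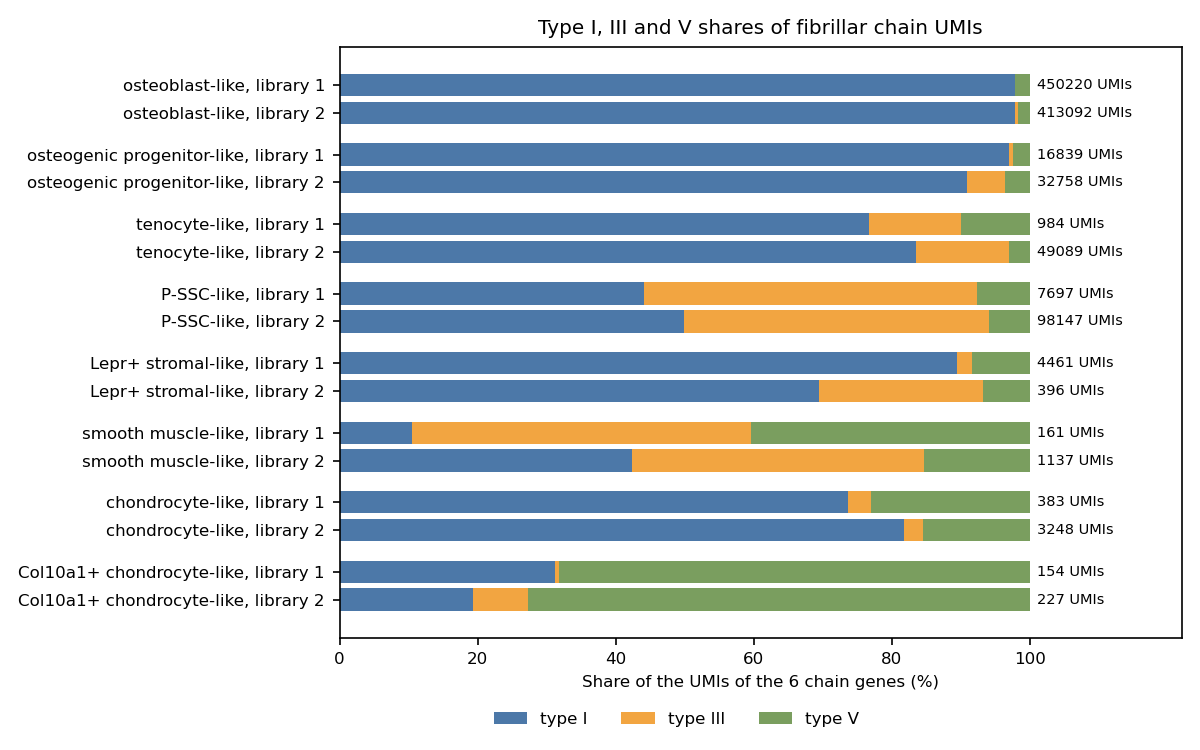
Share of type I (Col1a1, Col1a2), type III (Col3a1) and type V (Col5a1, Col5a2, Col5a3) in the UMIs of the 6 genes, by stromal class and library, in percent, with the number of UMIs beside each bar. Osteoblast-like bars are 97.8% and 97.9% type I, and P-SSC-like bars 48.2% and 44.2% type III.

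The mixture in P-SSC-like cells was present within single cells. Among cells with at least 20 UMIs of Col1a1, Col1a2 and Col3a1, type III made up a median of 50.3% of those UMIs in library 1 (21 of 31 cells) and 50.4% in library 2 (296 of 320 cells), with 10th and 90th percentiles of 40.0% and 68.6%, and 30.5% and 65.8%. The same median was 0 in osteoblast-like cells of both libraries, 1.96% and 2.26% in osteogenic progenitor-like cells and 12.4% in tenocyte-like cells of library 2. Smooth muscle-like cells of library 2 had a median of 62.0% over 16 cells. No osteoblast-like cell of 91 and 185 was over 50%, against 11 of 21 and 149 of 296 P-SSC-like cells.

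The P-SSC-like class was made of 3 clusters, and their collagen levels differed. The cluster led by Mfap4, Eln and Gsn (5 and 125 cells) had 10890.3 and 15109.9 CPM of Col1a1 and 16712 and 19588 of Col3a1. The cluster led by Mfap5, Ly6a and Clec3b (16 and 167 cells) had 4008 and 6181 CPM of Col1a1 and 12588 and 13051 of Col3a1. Both genes were higher in the former in each library, whereas Col5a3 was lower there, at 202 and 191 against 341 and 292 CPM, and Col5a1 stood at 918 and 742 against 756 and 846. The third cluster, led by Ttr, Lpl and Pi16 (10 and 28 cells), also carried blood cell markers and differed between libraries, with 537 and 11873 CPM of Col1a1 and 723 and 5569 of Col3a1. The border with tenocyte-like cells depended on the clustering. Without integration the P-SSC-like class went from 31 and 320 to 30 and 190 cells, and no class was named tenocyte-like. An unnamed cluster led by Tnmd, Mfap4 and Thbs4 held 3 and 189 cells there. Which cells changed class was not traced.

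The question of which chains go together was put as 5 ratios of UMIs within a class sum, which do not depend on depth. A 3′ UMI counts a molecule whatever its length, and a difference in capture between genes stays in the ratio but cancels between classes. Each ratio was compared across osteoblast-like, osteogenic progenitor-like, P-SSC-like, chondrocyte-like and Col10a1+ chondrocyte-like cells by a 2-sided exact permutation test over the 945 ways to pair the 10 sums (smallest p possible 0.00106), with Benjamini-Hochberg adjustment over the 5 ratios. All 5 differed between classes beyond the spread between libraries.

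The Col1a1 to Col1a2 ratio was 1.36 and 2.14 in osteoblast-like, 1.47 and 1.96 in progenitor-like, 0.804 and 1.34 in P-SSC-like and 0.362 and 0.6 in chondrocyte-like cells. Library 2 was higher in all 5 classes, and P-SSC-like cells of library 2 were close to osteoblast-like cells of library 1. The class means spanned 2.01 on the log2 scale (exact permutation p = 0.0201, adjusted p = 0.0201). The lowest mean was that of Col10a1+ chondrocyte-like cells (0.412 and 0.419, from 14 and 13 Col1a1 UMIs), where Col1a1 is at background, and with both chondrocyte classes pooled the exact permutation test gave an adjusted p of 0.0595, in a range of adjusted p from 0.00661 to 0.0595 over the alternatives. Over the named blood classes with UMIs of both genes in both libraries, the ratio was 1.53 and 1.99 in B cell-like, 1.33 and 1.43 in erythroid-like and 1.54 and 2.83 in neutrophil-like cells, the last from 34 and 12 UMIs in library 2.

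The Col3a1 to Col1a1 ratio spanned the widest range, 9.39 on the log2 scale, from 0.00156 and 0.00539 in osteoblast-like cells to 2.45 and 1.55 in P-SSC-like cells (exact permutation p = 0.0106, adjusted p = 0.0132). Progenitor-like cells gave 0.00812 and 0.0911, a gap between libraries in the same direction as their Col3a1 level. Chondrocyte-like cells gave 0.173 and 0.0904. Col10a1+ chondrocyte-like cells, also in the test, gave 0.0714 in library 1, from 1 Col3a1 and 14 Col1a1 UMIs. In library 2 they gave 1.38, from 18 and 13 UMIs, with an exact binomial interval of 0.641 to 3.07 that holds the P-SSC-like value. Smooth muscle-like cells, outside the test, had 9.88 and 1.52, with 8 Col1a1 UMIs in library 1.

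Col5a1 to Col5a2 was steady in P-SSC-like cells (0.815 and 0.809) and lower in osteoblast-like cells (0.234 and 0.385), with 0.339 and 0.536 in progenitor-like and 0.475 and 0.650 in chondrocyte-like cells. Col10a1+ chondrocyte-like cells were lowest, at 0.0294 and 0.0513 from 3 and 8 Col5a1 UMIs (exact permutation p = 0.00741, adjusted p = 0.0123). With the chondrocyte classes pooled, which leaves 1 class fewer, the span fell from 4.24 to 1.46 on the log2 scale (exact permutation, adjusted p = 0.190, in a range over the alternatives from 0.000148 to 0.190).

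Col5a3 to Col5a1 was 0.411 and 0.312 in P-SSC-like, 0.216 and 0.136 in progenitor-like, 0.0357 and 0.0359 in chondrocyte-like and 0.000549 and 0.00444 in osteoblast-like cells (exact permutation p = 0.00317, adjusted p = 0.00794). Col10a1+ chondrocyte-like cells, also in the test, had 0 and 1 Col5a3 UMIs beside 3 and 8 of Col5a1. Their log2 ratios in the test, -2.81 and -2.50, depend on the 0.5 UMIs added to each count. The order of P-SSC-like, progenitor-like and osteoblast-like cells was the same in each library. Smooth muscle-like (3.58 and 2.03) and Lepr+ stromal-like cells (1.08 and 1.5) had more UMIs of Col5a3 than of Col5a1.

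Type V to type I was lowest in osteoblast-like cells, at 0.0218 and 0.0181, then 0.0260 and 0.0394 in progenitor-like and 0.174 and 0.119 in P-SSC-like cells. It was 0.312 and 0.189 in chondrocyte-like and 2.19 and 3.75 in Col10a1+ chondrocyte-like cells (exact permutation p = 0.00106, the smallest possible, adjusted p = 0.00529). The Col10a1+ value divides by 48 and 44 type I UMIs, of which 14 and 13 were Col1a1 at the blood level, and with the chondrocyte classes pooled the span fell from 7.16 to 4.26 on the log2 scale (exact permutation, adjusted p = 0.0159, in a range over the alternatives from 0.000481 to 0.0159).

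**Figure D3:**
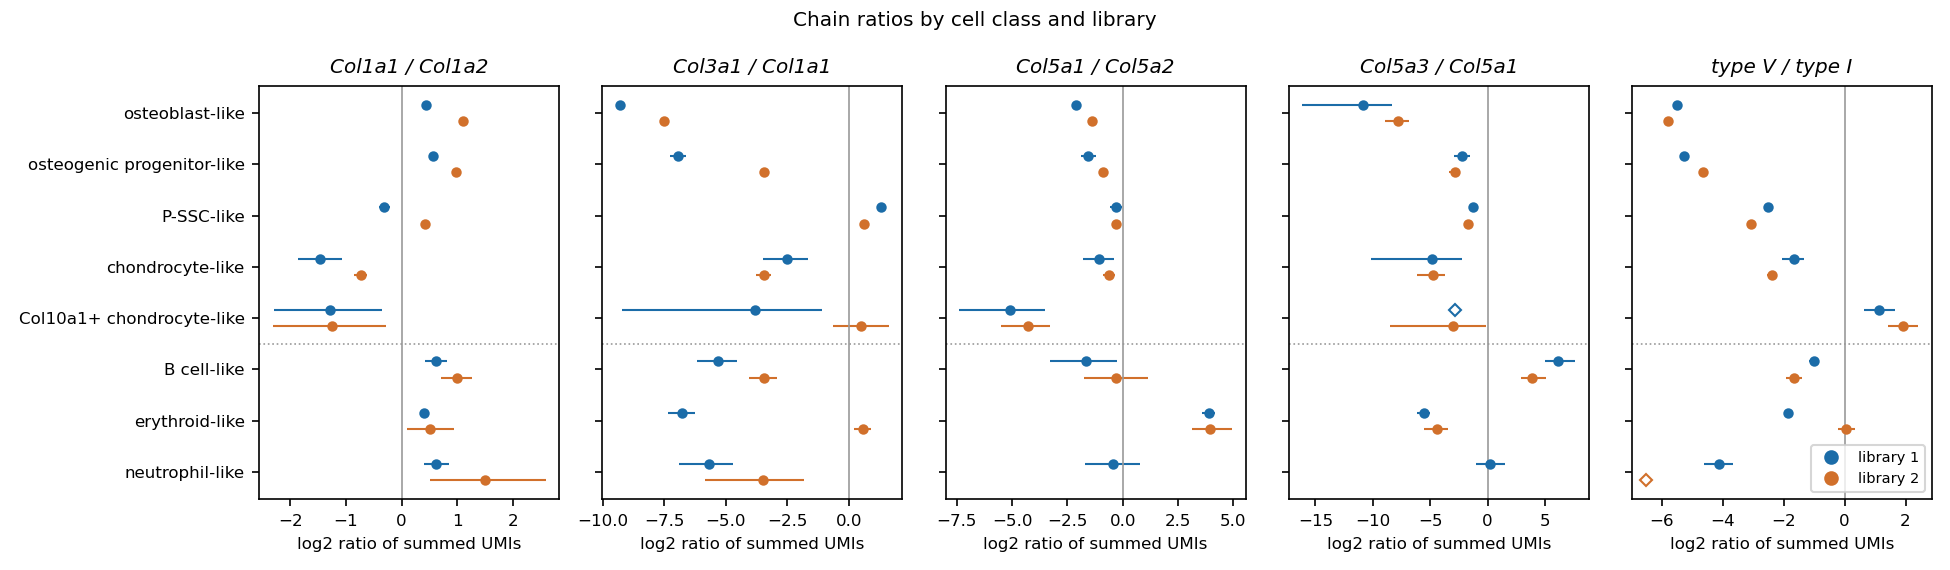
Log2 ratio of summed UMIs of the 5 chain pairs in the 5 classes tested (above the dotted line) and 3 blood classes (below it), for libraries 1 and 2, with exact binomial 95% intervals (counting error only). Open diamonds mark sums in which a gene had 0 UMIs and 0.5 was added to each count. P-SSC-like cells have the highest Col3a1 to Col1a1 ratio of the classes tested, 2.45 and 1.55. In library 2 the interval of Col10a1+ chondrocyte-like cells (1.38, from 18 and 13 UMIs) holds the P-SSC-like value.

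To test levels against all genes, UMIs summed per library and class were compared with the quasi-likelihood test of edgeR over 8815 genes, at an adjusted p under 0.05. Against P-SSC-like cells, 6.67% of genes were higher in osteoblast-like cells and 10.5% lower, whereas 3 of the 6 chain genes were higher and 2 lower. Col1a1 was 24.9 and 9.52 times as high in CPM in libraries 1 and 2, with a fitted log2 difference of 4.30 ± 0.89 (SE, adjusted p = 0.00596). Col1a2 (log2 difference 3.77 ± 0.70, adjusted p = 0.00309) and Col5a2 (2.01 ± 0.41, adjusted p = 0.00643) rose with it. Col3a1 fell by 4.75 ± 1.05 on the log2 scale (adjusted p = 0.00701) and Col5a3 by 6.54 ± 0.74 (adjusted p = 0.000269). Only Col5a1 missed the threshold, with a difference of 0.52 ± 0.55 (adjusted p = 0.60), and its CPM was 1.21 and 0.855 times that of P-SSC-like cells in the 2 libraries. These differences are on the TMM scale, and without that scaling the median of all genes moved to -0.55, the log2 difference of Col5a1 became 0.01 and the share of calls that were higher went from 38.8% to 19.8%, with no change of sign for any of the 6 genes.

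Osteoblast-like cells were then set against osteogenic progenitor-like cells, where 0.352% of genes were higher and 2.55% lower. Col5a2 was higher (log2 difference 1.92 ± 0.41, adjusted p = 0.0336, and 3.90 and 1.91 times in CPM) and Col5a3 lower (-4.67 ± 0.70, adjusted p = 0.00621). The call of Col5a2 was lost with the chondrocyte classes pooled (adjusted p = 0.0515, in a range over the alternatives from 0.000297 to 0.0515). The type I genes had 3.93 and 3.70 times (Col1a1) and 4.25 and 3.39 times (Col1a2) the CPM of progenitor-like cells in libraries 1 and 2 but did not pass, with adjusted p = 0.173 and 0.0813. With the library as a block, Col1a2 had an adjusted p of 0.0326 and the number of genes called went from 256 to 521. Over the alternatives the adjusted p of Col1a2 ranged from 0.000269 to 0.12. Col5a1 (1.28 ± 0.55, adjusted p = 0.291) and Col3a1 (-1.54 ± 0.92, adjusted p = 0.505) were not called. At the coarser clustering resolution of 0.4 a different set of cells (37 and 88) took the progenitor-like name, and Col5a3 was not called there, with a log2 difference of 0.15 (adjusted p = 0.914, in a range from 4.36e-12 to 0.914). Without TMM the share of higher calls fell from 12.1% to 2.08%.

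Chondrocyte-like cells had lower levels of all 6 genes than P-SSC-like cells, where 12.5% of genes were lower and 8.98% higher. Col3a1 had the largest difference (-8.86 ± 1.26, adjusted p = 0.000482), then Col5a3 (-6.68 ± 0.76, adjusted p = 0.000183), Col1a1 (-4.85 ± 0.92), Col1a2 (-3.73 ± 0.70), Col5a1 (-3.60 ± 0.61) and Col5a2 (-3.11 ± 0.43), the last 4 with adjusted p from 0.000688 to 0.00299. In library 1 the chondrocyte-like levels of Col1a1 and Col5a1, 82.5 and 30.8 CPM, were near those of erythroid-like cells, 74.3 and 33.1 CPM. Without TMM, 23.8% of calls were higher in place of 41.9%. Here and for osteoblast-like cells the P-SSC-like sums are the same, so the 2 comparisons share them.

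Lepr+ stromal-like cells, named for the leptin receptor of marrow stroma, had 6 cells in library 2 and could be fitted only with the minimum lowered to 5 cells, over 8841 genes. Of all genes, 1.56% were higher than in P-SSC-like cells and 2.07% lower. Col5a1 was lower, at 168 and 132 CPM, the second from 4 UMIs, against 608 and 784 CPM (log2 difference -2.54 ± 0.62, adjusted p = 0.0372), and the other 5 genes were not called. The erythroid and neutrophil markers given above for Lepr+ stromal-like cells of library 1 stand beside this call, and their part in it was not tested. This call was lost at resolutions 0.4 and 1.2, with adjusted p = 0.123 and 0.0775, in a range over alternatives from 0.000128 to 0.123. With the library as a block Col3a1 was called as well (log2 difference -4.37, adjusted p = 0.00411, in a range from 3.63e-07 to 0.233), and the number of genes called went from 321 to 529.

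**Figure D4:**
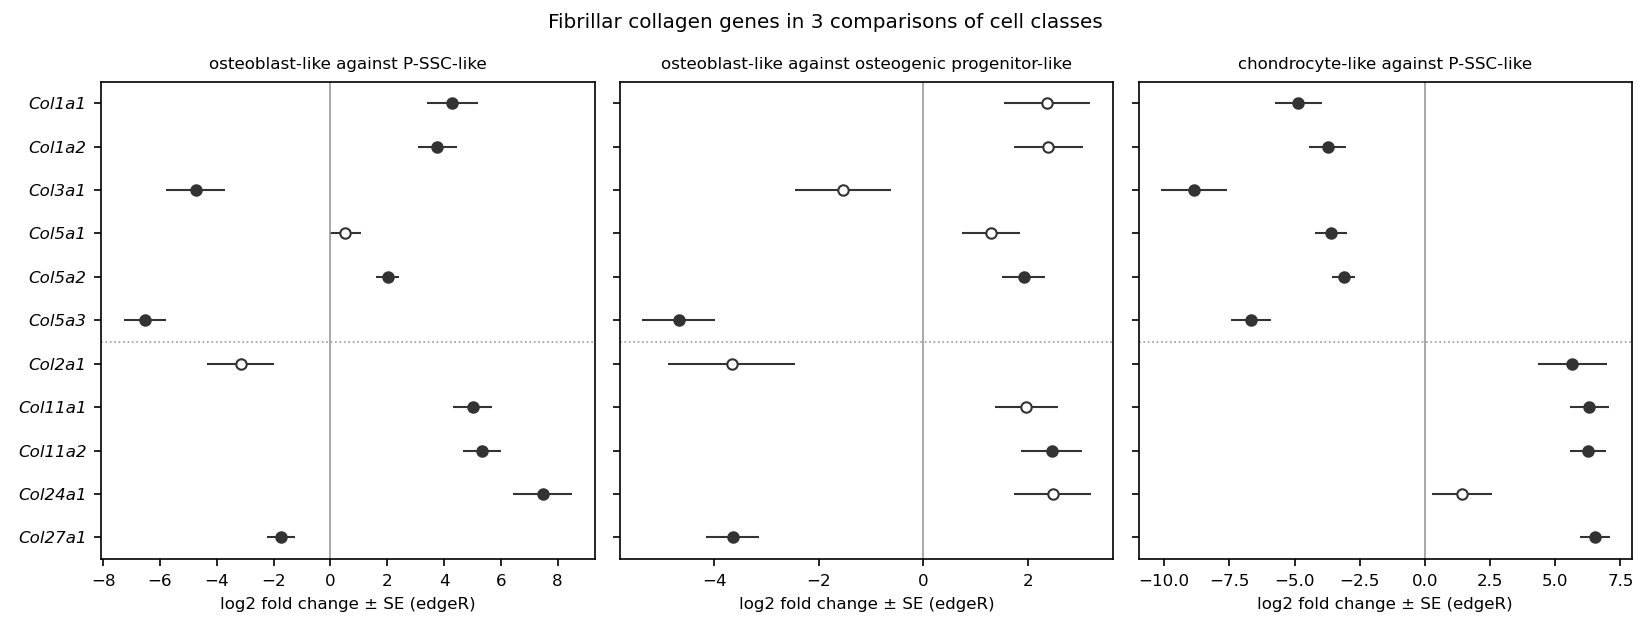
Fitted log2 fold changes with SE (edgeR, 2 libraries per class) of the 6 chain genes (above the dotted line) and 5 other fibrillar collagen genes (below it) in 3 comparisons. Filled points passed an adjusted p of 0.05 and open points did not. Col1a1 is at 4.30 and Col5a3 at -6.54 in osteoblast-like against P-SSC-like cells, and all 6 chain genes lie below 0 in chondrocyte-like against P-SSC-like cells.

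The 5 other fibrillar collagen genes were read beside these. The shares of all genes called higher and lower were 6.67% and 10.5% for osteoblast-like and 8.98% and 12.5% for chondrocyte-like against P-SSC-like cells. They were 0.352% and 2.55% for osteoblast-like against progenitor-like cells. Against P-SSC-like cells, 3 of 5 were higher in osteoblast-like cells: Col11a1 (4092 and 1946 CPM against 225 and 61.9) and Col11a2 (2138 and 1663 against 120 and 27.7), whose type XI chains can assemble with those of type V, and Col24a1, with 279 and 215 UMIs against 0 and 2. Col27a1 was lower (4.85 and 3.31 against 21.7 and 18.1 CPM, adjusted p = 0.0352). Col2a1, the main collagen of cartilage, was at 92.9 and 93.3 against 2160 and 402 CPM and did not pass (adjusted p = 0.0930). Its UMIs in P-SSC-like cells lay in 12.9% and 9.69% of cells, and chondrocyte markers summed to 2290 and 791 CPM there. Against progenitor-like cells Col11a2 was higher and Col27a1 lower. In chondrocyte-like cells 4 of 5 were higher than in P-SSC-like cells, all but Col24a1, opposite to the 6 genes above, with Col2a1 at 51346 and 39239 CPM. In Lepr+ stromal-like cells Col2a1 was lower (5 and 0 UMIs, adjusted p = 0.0200).

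Of 29 genes for procollagen folding, secretion, trimming and crosslinking, 27 could be tested. In osteoblast-like against P-SSC-like cells 13 were higher and 3 lower, beside 6.67% and 10.5% of all genes. Their median log2 difference was 1.24, against -0.03 over all genes. Those higher included the chaperone Serpinh1, the prolyl hydroxylases P4ha1, P4ha2 and P3h1, the lysyl hydroxylase Plod2, the crosslinker Lox and the trimming enzyme Bmp1. The 4 with the largest differences were Loxl1, P4ha3, Pcolce2 and Creb3l1. Loxl1, a lysyl oxidase tied to elastic fibers, was at 340 and 378 CPM in P-SSC-like and 2.02 and 10.3 in osteoblast-like cells (log2 difference -5.31 ± 0.79, adjusted p = 0.000485). P4ha3, a further prolyl hydroxylase, was at 38.0 and 30.1 against 0 and 0.993 CPM, and Pcolce2, an enhancer of procollagen trimming, at 709 and 428 against 42.8 and 28.1. Creb3l1, a transcription factor that drives type I collagen genes, was at 43.5 and 49.9 against 418 and 231 CPM (3.29 ± 0.51, adjusted p = 0.000729). The direction of all 4 was the same in both libraries.

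The list was read in the other comparisons too. Against progenitor-like cells edgeR called 1 gene of 27, Loxl1, as lower, beside 2.55% of all genes, and 0 as higher, beside 0.352%. At an unadjusted p under 0.05 it gave 11 of 27 higher and 2 lower, beside 5.81% and 9.11% of all genes, and DESeq2 gave 1 and 1, beside 1.11% and 4.36%. Chondrocyte-like cells had 10 genes higher and 2 lower than P-SSC-like cells, beside 8.98% and 12.5% of all genes. The median was 1.10, although the 6 chain genes were all lower. For Lepr+ stromal-like cells 0 of 26 genes tested were called by edgeR or by DESeq2. Of all genes, edgeR called 1.56% higher and 2.07% lower, and DESeq2 2.65% higher and 2.18% lower. At an unadjusted p under 0.05 edgeR gave 1 higher and 2 lower, beside 6.90% and 9.41% of all genes.

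By Pearson correlation of log2 CPM over the 12 class sums of the fit, a description in which sums share libraries, Col1a1 was most like Tmem119 (r = 0.986), Col1a2 (0.983) and Gm266 (0.977), and Col1a2 was most like Col1a1, Tmem119 (0.981) and Serpinf1 (0.979). Tmem119 encodes a membrane protein of osteoblasts, and Serpinf1 a secreted inhibitor of vessel growth. Nearest to Col3a1 were Fam171a2 (0.965), Gm28875 (0.964) and Trnp1 (0.958). Col5a1 went with Serpinf1 (0.974), Ccnd2 (0.973) and Mxra8 (0.966), and Col5a2 with Ifngr1 (0.972), Tjp1 (0.971) and Adamts10 (0.970). For Col5a3 they were Rhoj (0.992), Col4a1 (0.982), a basement membrane collagen, and Ifi211 (0.981). Among the 6 genes themselves, r was 0.940 for Col5a1 with Col1a2, 0.895 for Col3a1 with Col5a3 and 0.893 for Col5a1 with Col1a1. It was 0.847 for Col3a1 with Col5a1, 0.855 for Col5a1 with Col5a2 and 0.448 for Col5a2 with Col5a3.

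The blood cells were not uniform for type V genes. Col5a1 UMIs were concentrated in erythroid-like cells, with 33.1 and 45.1 CPM and UMIs in 31.2% and 29.1% of cells, whereas B cell-like cells had 0.459 and 1.57 CPM and UMIs in 0.309% and 0.833%. The level varied among the erythroid-like clusters. That led by Car1, C1qtnf12 and Mthfd1 had 40.5 and 62.8 CPM, with UMIs in 62.5% and 69.8% of its 437 and 43 cells (median 57353 UMIs), that led by Hebp1 had 38.8 and 22.8 CPM and that led by Hemgn 19.2 and 33.6. The cluster led by Tmcc2 was at 5.32 and 7.91 CPM. The Col5a1 to Col5a2 ratio of erythroid-like cells was 14.7 and 15.5, against 0.0294 to 0.815 in the stromal classes tested. Smooth muscle-like cells, outside the test, had 1.2 and 0.416. The source of the Col5a1 UMIs in erythroid-like cells was not tested. Thinned to 1000 UMIs, 2.37% and 2.76% of erythroid-like cells would have a Col5a1 UMI.

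Col5a3 was found in another blood class. B cell-like cells had 33.2 and 23.2 CPM, with UMIs in 13% and 8.44% of cells, and their Col5a3 to Col5a1 ratio was 72.3 and 14.8. Of its 434 and 133 UMIs, 397 and 127 lay in the cluster led by BE692007, Iglc1 and Gm8369 (1302 and 514 cells, median 3109.5 UMIs), at 97.2 and 75.4 CPM, in 17.4% and 14.6% of cells. An unnamed cluster led by Ms4a1, Cd74 and Iglc2 followed at 32.3 and 17.0 CPM. B cell-like cells led by Vpreb1, Dntt and Igll1 had 0 and 1 UMIs, and the cluster led by Myl4 and Fcrla had 13.5 and 5.15 CPM. An erythroid-like cluster led by Hba-a2 had 23.7 and 36.1 CPM from 14 and 3 UMIs, and none of the other blood clusters was over 5.67 CPM. The level of P-SSC-like cells, 250 and 244 CPM, was above all of these, and that of osteogenic progenitor-like cells, 59.0 and 66.2 CPM, was below that of the BE692007-led cluster.

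**Figure D5:**
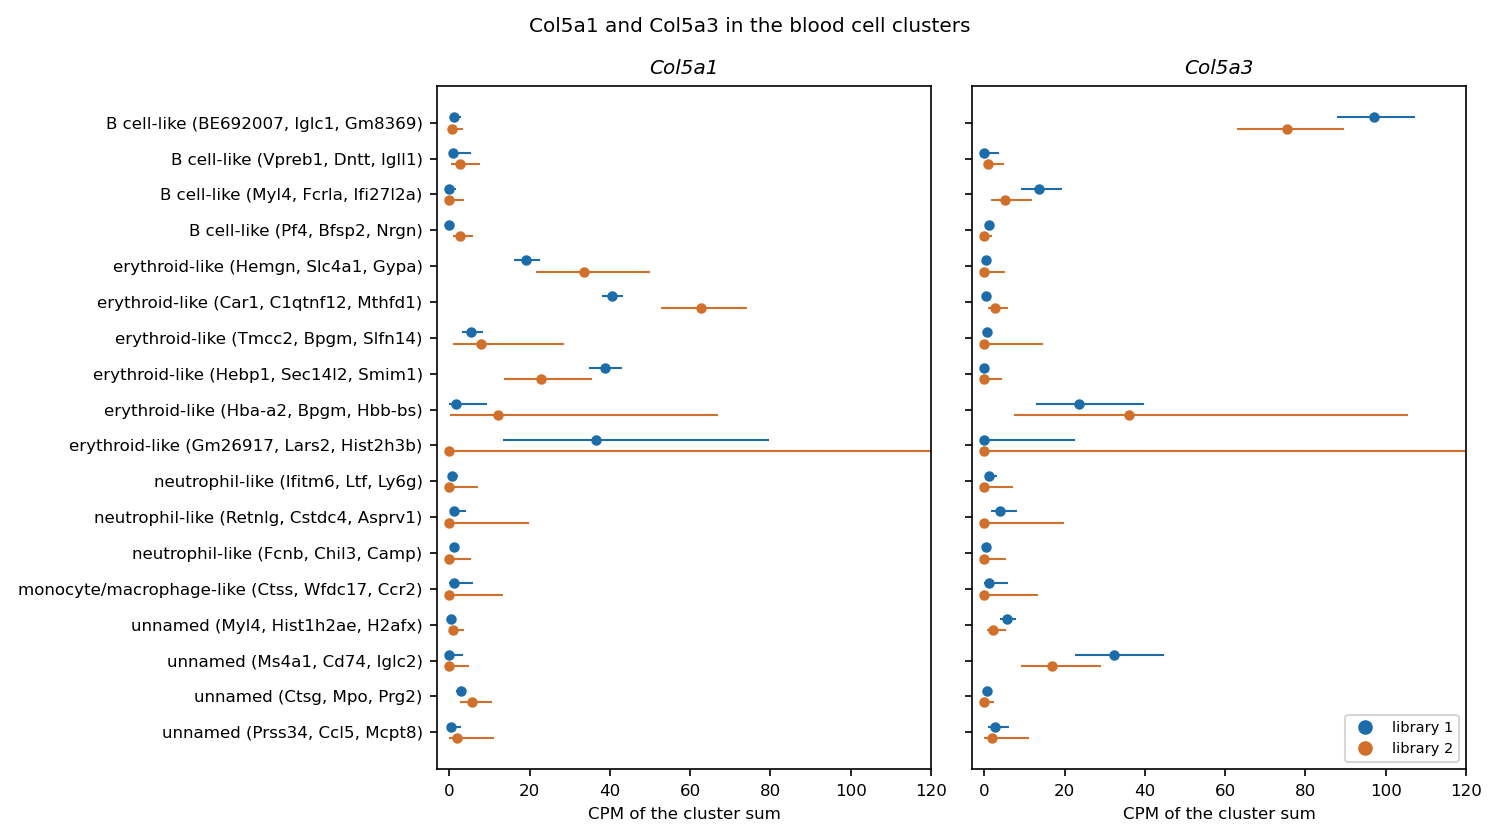
Col5a1 (left) and Col5a3 (right) in the 18 blood clusters, named by class and leading genes, as CPM of the cluster sum in libraries 1 and 2, with exact Poisson 95% intervals (counting error only). Lines that reach the right edge run past it. Col5a1 is highest in erythroid-like clusters, up to 40.5 and 62.8 CPM in the Car1-led one, and Col5a3 in the B cell-like cluster led by BE692007, at 97.2 and 75.4 CPM.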

How the data were processed

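Periosteal cells were profiled in 2 10x scRNA-Seq libraries. Per the labels and the methods, the authors used Cell Ranger (6.1.2 and the mm10 build, per the submitters' processing notes) for alignment and counting, and the deposited values are UMI counts of genes in barcodes with no normalization. The annotation release is not given in the sources used here, and positions are those of GENCODE M21.

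Kept cells were integrated and clustered with Seurat 5.3.0 in R 4.3.3 (canonical correlation analysis, 3000 variable genes, 30 anchor dimensions, 15 principal components, resolution 0.8). The 6 chain genes, the 5 other fibrillar collagens and the 29 processing genes took no part as variable genes or markers. Blood clusters were removed and the others clustered again. A marker counted at a log2 fold of 1 (10 CPM added) and UMIs in 20% of cells, and a name needed at least 3. By this rule the cluster led by Col10a1 was chondrocyte-like too, and a further step set it apart as a class of its own. No doublet caller was run, and an alternative leaves out the deepest cells. Members, lists and names were chosen with earlier results of these data known.

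UMIs were summed per library and class with at least 10 cells in each library (6 classes, 12 sums) and compared with edgeR 4.0.16 (glmQLFit with legacy=FALSE, filterByExpr, TMM, Benjamini-Hochberg over all genes, threshold 0.05). Each SE given for edgeR was worked back from the test, as the absolute log2 difference over the square root of its F statistic. CPM intervals are exact Poisson, shares and ratios exact binomial (Clopper-Pearson), at 95%. They cover counting error only. The floor given for a count of 0 is 3 UMIs, which is lower than the upper end of the exact Poisson interval. Depth was 100808649 and 33306452 UMIs. Genes named are the 6 members, the 5 other fibrillar collagens, the 4 called processing genes with the largest difference and the 3 genes most like each member. Other processing genes and cluster markers were named after their values were seen, and GGGCGG was added after the sequences were seen. Alternatives were DESeq2 1.42.0, other scaling, filters, clusterings and a library block. Sums of different classes share a library, and their deviations from class means correlated over 15 class pairs at r of 0.05 to 0.40 (median 0.18). The tests were tried on simulated data. For the ratios, the simulated sums shared no library effect and held no counts near 0, so that trial does not cover these features of the data.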

Additional observations from a re-analysis of the deposited data

How the results depend on the processing

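With 2 libraries, differences near the threshold are called or missed by small changes in the fit. Against P-SSC-like cells, all 6 chain genes of chondrocyte-like cells and 5 of osteoblast-like cells were called under every alternative with a test. The direction of single members reversed in 2 results, and without replicate 1 the log2 difference of Col5a1 in osteoblast-like against P-SSC-like cells was -0.23, with no test. Both reversals were osteoblast-like against osteogenic progenitor-like cells at resolution 0.4, where Col3a1 had a log2 difference of 3.07 (adjusted p = 0.0729) and Col5a3 0.15 (adjusted p = 0.914). Without the filter on low counts the genes called were 2573 (osteoblast-like against P-SSC-like), 907 (osteoblast-like against progenitor-like), 3018 (chondrocyte-like) and 946 (Lepr+ stromal-like), against 1515, 256, 1891 and 321. For progenitor-like cells they were 482 with DESeq2, 430 with legacy=TRUE, 521 with the library as a replicate block and 1399 at resolution 0.4, and the members called were 4 with DESeq2, 4 at resolution 0.4 and 1 with the chondrocyte classes pooled, against 2. For Lepr+ stromal-like cells they were 618 with legacy=TRUE, 529 with the replicate block, 484 at resolution 0.4 and 520 without the cluster led by Ttr, and the members called were 2 without the filter, 2 with the block, 3 without integration and 0 at resolutions 0.4 and 1.2, against 1. The cause of these changes was not tested. With the chondrocyte classes pooled, the span of Col1a1 to Col1a2 was 1.86 (adjusted p = 0.0595, exact permutation) and that of Col5a1 to Col5a2 1.46 (adjusted p = 0.190, exact permutation), with 1 class fewer. Without a replicate, given as values with no test, the spans were 1.70 to 2.32, 8.16 to 10.6, 3.90 to 4.58, 6.06 to 8.97 and 6.64 to 7.69 in the order of the report. The pooled classes, the cluster led by Ttr, the Lepr+ fit and the ratios without a replicate were chosen after seeing the data. Pooled chondrocyte classes are also what the naming rule alone gives, without the step that sets the Col10a1-led cluster apart. Beside Col1a2 (progenitor-like) and Col3a1 (Lepr+ stromal-like), the block changed no call of a member.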

Other observations

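A stromal cluster led by Msmp, Prg4 and Cytl1, found only in library 2 (76 cells) and left unnamed, had 10467 CPM of Col1a1, 7532 of Col1a2, 1566 of Col3a1, 847 of Col5a2 and 3 UMIs of Col5a3. Its type I share was 87.0%, and 15543 CPM of Col2a1 stood beside it. A cluster led by S100a5, Fabp4 and Mepe (32 and 50 cells) had 4108 and 5479 CPM of Col1a1, with UMIs in 31.2% and 48.0% of cells. In library 2, 143 of the 173 Col3a1 UMIs of erythroid-like cells were in the Car1-led cluster, in 18.6% of its 43 cells.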
